A study of Homo sapiens with 32 samples.

Results

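Chromosome 8 of HCT116 and K562 cells was followed through every region of uracil enrichment that the 15 single-library region files place on it. The members were all regions whose chromosome field read chr8, 95548 of 2015148 regions over the 15 libraries, and from 2981 (RTX_UGI_2) to 10766 (5FdUR_UGI_MMR_2) in a single library. The chromosome was cut into bins of 1 Mb, of which 144 of the 2903 bins tested in the whole genome lay here, 44 on the short arm (8p) and 100 on the long arm (8q). A further reading was made over 657 protein-coding gene bodies of at least 1 kb out of 18924 tested. On chromosome 8, 697 such genes are annotated, and 40 of them were touched by no region in any HCT116 library and could not be tested.

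The libraries were made by U-DNA-Seq, in which fragmented genomic DNA is pulled down with the FLAG-tagged, catalytically inactive ΔUNG sensor that binds uracil, and is sequenced beside its own input. HCT116 is a colorectal carcinoma line that is MMR (mismatch repair) deficient. A variant to which chromosome 3 with hMLH1 was added is MMR proficient. Non-treated HCT116 cells gave 6 libraries, 2 each of WT (MMR deficient, no UGI), NT_UGI (MMR deficient, UGI) and NT_UGI_MMR (MMR proficient, UGI). Treated HCT116 cells gave 8 libraries, 2 each of 5FdUR_UGI and 5FdUR_UGI_MMR (20 µM 5FdUR for 48 h) and of RTX_UGI and RTX_UGI_MMR (100 nM RTX for 48 h), where _MMR again marks the MMR proficient variant. UGI is a protein inhibitor of the uracil-DNA glycosylase UNG, and every drug-treated library also carries it. The paper describes UGI expression by transient transfection and, stably with EGFP, by retroviral transduction and sorting. Which of these gave each library was not told apart here. K562, a chronic myelogenous leukemia line, gave 1 wild type library without drug.

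Uracil enters DNA when dUTP is used in place of dTTP during replication, or when cytosine is deaminated. UNG normally cuts it out and starts base excision repair. 5FdUR (floxuridine) and RTX (raltitrexed) both inhibit thymidylate synthase, which makes dTMP from dUMP, so that dUTP gains on dTTP, and with UNG inhibited the uracil remains in the DNA. 5FdUR is also built into DNA directly as fluorouracil, and the paper states that the sensor method picks up this base too. Regions after 5FdUR can therefore hold either base, and these were not told apart here. Chromosome 8 holds gene-poor, AT-rich stretches on its long arm, among them the very large gene CSMD3, and ends at the 8q telomere in a GC-rich, gene-dense block.

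A region is a stretch where enriched coverage over input, as log2, stayed above a threshold that the authors chose for each library. Coverage was scaled to the genome in each library, so a region marks relative enrichment within a library and not an amount of uracil. The paper's dot blots found far more genomic uracil in drug-treated, UGI-expressing cells than in non-treated ones. A fall in covered share therefore need not mean less uracil. The lowest region value in a file ran from 0.25 to 0.33 in the non-treated and from 0.13 to 0.27 in the drug-treated HCT116 libraries, and the total length covered in the genome from 322 to 332 Mb and from 504 to 556 Mb. A common minimum log2 value of 0.33, used below as an alternative, therefore removes nothing from WT_1 and much from files with low values. On chromosome 8 the mean and highest log2 values were 0.227 and 0.403 in 5FdUR_UGI_MMR_2, and 0.331 and 0.593 in 5FdUR_UGI_MMR_1. The covered share used below is the percent of the known bases of the chromosome, an arm, a bin or a gene that lay inside regions. Because a threshold of the authors sets the total length, the relative share (the covered share of chromosome 8 divided by that of the other autosomes and X) is given beside it. The region files hold no read counts, and the read numbers that the study tabulates were not used here, so the spread between libraries is the only error given.

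In the deposited regions the mean covered share of the whole chromosome was alike with and without drug, while the balance of its arms turned over. Non-treated HCT116 libraries covered between 13.4% (WT_2) and 14.3% (NT_UGI_2) of chromosome 8, a mean of 13.9%. The 4 5FdUR libraries covered 13.9, 14.5, 17.7 and 17.97%, and the 4 RTX libraries 11.3, 12.5, 12.02 and 11.4%. RTX libraries thus lay below every non-treated library, and 5FdUR libraries above them except for 5FdUR_UGI_1 at 13.9%. The mean of the drug-treated libraries differed by 0.038 percentage points from that of the non-treated ones (two-sided exact permutation test, p = 0.969). With the total length held to the 300 Mb of highest log2 value in each library, or with a common minimum log2 value of 0.33, that difference became -4.89 (p = 0.000666, exact permutation test) and -4.51 percentage points (p = 0.0103, exact permutation test). With only regions of at least 5 kb it was 2.53 percentage points (p = 0.00133, exact permutation test).

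Over both MMR states together, the mean of this share was lower after RTX and higher after 5FdUR than without drug. The 5FdUR rise lay in MMR proficient cells, with 17.9% in 5FdUR_UGI_MMR against 13.8% in NT_UGI_MMR on average. In MMR deficient cells 5FdUR_UGI was at 14.2% and NT_UGI at 14.1%. This share is not corrected for total length, and the relative share, given next, was lower with both drugs. RTX differed from non-treated cells by -2.07 percentage points (exact permutation test over 4 and 6 libraries, p = 0.00476, adjusted p = 0.0119 over 30 tests), and 5FdUR by 2.15 (exact permutation test, p = 0.0238, adjusted p = 0.0429). The mean after 5FdUR, 16.0%, exceeded that after RTX, 11.8%, at the smallest p that 4 against 4 libraries can give (exact permutation test, p = 0.0286, adjusted p = 0.0429).

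Relative to the other chromosomes, chromosome 8 fell. The relative share was 1.26 on average in non-treated libraries, with a range from 1.203 to 1.30, and 0.773 in drug-treated ones, with a range from 0.613 to 1.01 (exact permutation test, p = 0.000666, adjusted p = 0.00666). Both drugs lay under every non-treated library, RTX at 0.638 and 5FdUR at 0.908 on average. Ranked by covered share among 23 chromosomes (1 to 22 and X), chromosome 8 stood between place 3 and place 6 in the non-treated libraries, at 18 or 19 after RTX, at 18 and 21 in 5FdUR_UGI, and at 9 and 10 in 5FdUR_UGI_MMR.

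The arms changed places. In non-treated cells 8q was covered more than 8p in all 6 libraries, 17.0% against 7.55% on average, and the difference ran from 8.35 to 10.1 percentage points. After drug treatment 8p was covered more in 7 of 8 libraries, with 8q minus 8p from -6.89 to -2.001, and 5FdUR_UGI_MMR_2 stood at 0.136. The mean arm difference was 9.42 percentage points without drug and -3.48 with drug, and no drug-treated library overlapped a non-treated one (exact permutation test, p = 0.000333, the smallest that 8 against 6 libraries can give; adjusted p = 0.004995). In the deposited regions 8p rose from 7.55% to 16.5% (exact permutation test, p = 0.000333) and 8q fell from 17.0% to 13.05% (exact permutation test, p = 0.0170, adjusted p = 0.0340). Which arm moved more depended on the regions kept, in alternatives added after seeing the data. With 300 Mb in each library 8p changed by 2.35 percentage points (exact permutation test, p = 0.0490) and 8q by -8.19 (exact permutation test, p = 0.000333). With a common minimum log2 value of 0.33 they changed by 3.12 (exact permutation test, p = 0.153) and -7.97 (exact permutation test, p = 0.000333), and with regions of at least 5 kb by 9.07 (exact permutation test, p = 0.000333) and -0.315 (exact permutation test, p = 0.513). For 8q the fall was -6.00 percentage points with RTX (exact permutation test, p = 0.00476) and -1.83 with 5FdUR, which did not pass (exact permutation test, p = 0.181). The arm difference itself did not separate 5FdUR from RTX (exact permutation test, difference -0.350, p = 0.8).

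**Figure D1:**
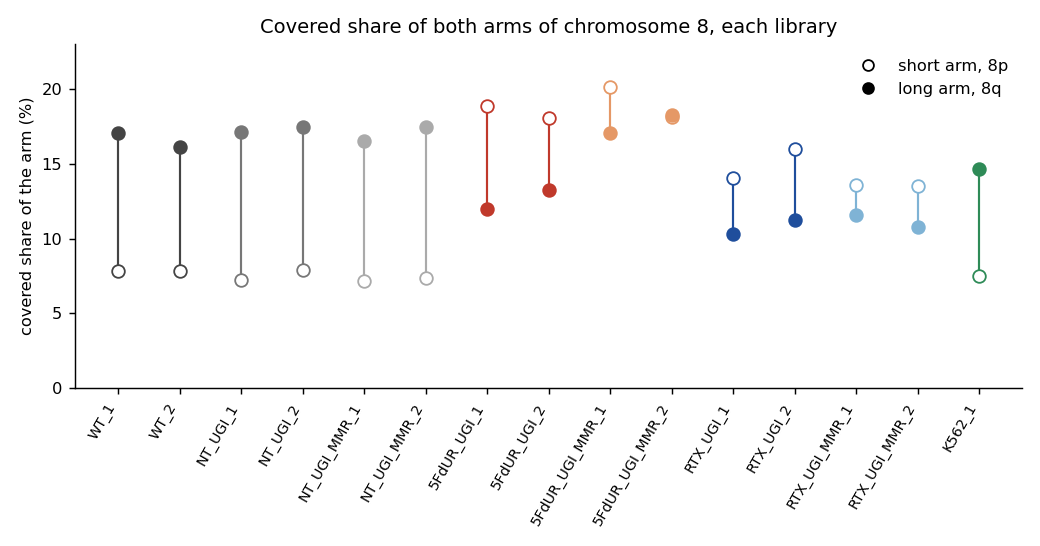
Covered share (%) of the short arm (open circles) and the long arm (filled circles) of chromosome 8 in each of the 15 libraries, coloured by condition, with a line joining the arms of a library. The long arm lies above the short arm in the 6 non-treated HCT116 libraries and K562, and below it in 7 of the 8 drug-treated libraries.

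The deposited regions also differed in length. In non-treated libraries chromosome 8 held 6867 to 7950 regions, and the longest of a library measured 36.8 to 51.7 kb. In 5FdUR libraries the longest measured 154.9 to 408.3 kb and in RTX libraries 115.6 to 393.7 kb, so the groups did not overlap. Regions of 50 kb or more numbered 1 in WT_2 and 0 in the other non-treated libraries, and 12 to 63 in the drug-treated ones (means 0.167 and 35.4, exact permutation test, p = 0.00133, adjusted p = 0.00999). The length at which regions of that size or longer hold 50% of covered bases (N50) rose from 5400 to 15238 bp on average (exact permutation test, p = 0.00932, adjusted p = 0.0200), although the median region became shorter, 1125 against 1333 bp (exact permutation test, p = 0.00766, adjusted p = 0.0177). In 5FdUR_UGI_MMR_2 the N50 was 5800 bp, beside 5200 to 5600 bp without drug. These lengths depend on the threshold and total length of a file, which differ between the groups. No alternative is given for them. Neither the number of regions (exact permutation test, p = 0.0919) nor their mean log2 value (0.380 against 0.437, exact permutation test, p = 0.134) separated the groups. The mean log2 value also depends on the lowest value a file keeps. The highest log2 value of a library did separate them, at 0.978 to 1.17 without drug and 0.403 to 0.766 with drug.

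In non-treated cells the covered share peaked in gene-poor bins of 8q. The highest bin of a library was chr8:113000001-114000000, which partly overlaps CSMD3, in 4 of 6 non-treated libraries (61.2 to 67.03%). It was chr8:110000001-111000000, which overlaps no protein-coding gene, in NT_UGI_2 and NT_UGI_MMR_2 (62.5 and 59.5%). Adjacent bins from chr8:110000001 to chr8:115000000 were covered by 57.1 to 61.8% on average. CSMD3 encodes a very large membrane protein with CUB and sushi domains. Its body was covered by 61.7 to 68.4% in the 6 libraries, and held the longest region of chromosome 8 in 5 of them. The highest log2 value of the chromosome was found elsewhere, in short regions of 8p. It lay near chr8:43235101-43244500 in 4 non-treated libraries (log2 0.98 to 1.17) and near chr8:29319401-29330900 in NT_UGI_2 and NT_UGI_MMR_2 (log2 1.16 in both), and neither place overlaps a protein-coding gene.

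With drug treatment regions were mostly lost from those bins and gained in others. Of the 144 bins, 55 (38.2%) rose and 65 (45.1%) fell in the mean of the 4 drug conditions against the mean of the 3 non-treated conditions (limma on the arcsine square root of the covered share, Benjamini-Hochberg over 2903 bins). In the whole genome 50.1% of bins rose and 38.9% fell. In 38 bins the lowest drug-treated library exceeded the highest non-treated one (26.4%; genome 33.7%), and in 49 bins the order was the reverse (34.0%; genome 24.5%). The rises numbered 25 on 8p and 30 on 8q, the falls 16 and 49. With a common minimum log2 value of 0.33 the counts were 36 higher and 83 lower, and with 300 Mb in each library 42 and 86. Without transformation they were 65 higher and 61 lower, and with regions of at least 5 kb 65 and 60, so the excess of falling bins turned over there.

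The bins that rose were GC-rich and gene-rich for this chromosome. Their median GC content was 42.5% with 6 protein-coding genes, against 37.3% and 2 genes in the bins that fell, and 39.4% and 3 genes in all 144 bins. The median covered share went from 2.72 to 29.3% in bins that rose and from 20.2 to 1.77% in bins that fell. Across the 144 bins the covered share ran against GC content in every non-treated condition (r = -0.738 in WT, -0.733 in NT_UGI and -0.737 in NT_UGI_MMR) and with it after drug (0.683 in 5FdUR_UGI, 0.539 in 5FdUR_UGI_MMR, 0.562 in RTX_UGI and 0.480 in RTX_UGI_MMR). Neighbouring bins share regions and base composition, so these are descriptions of 144 linked points.

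**Figure D2:**
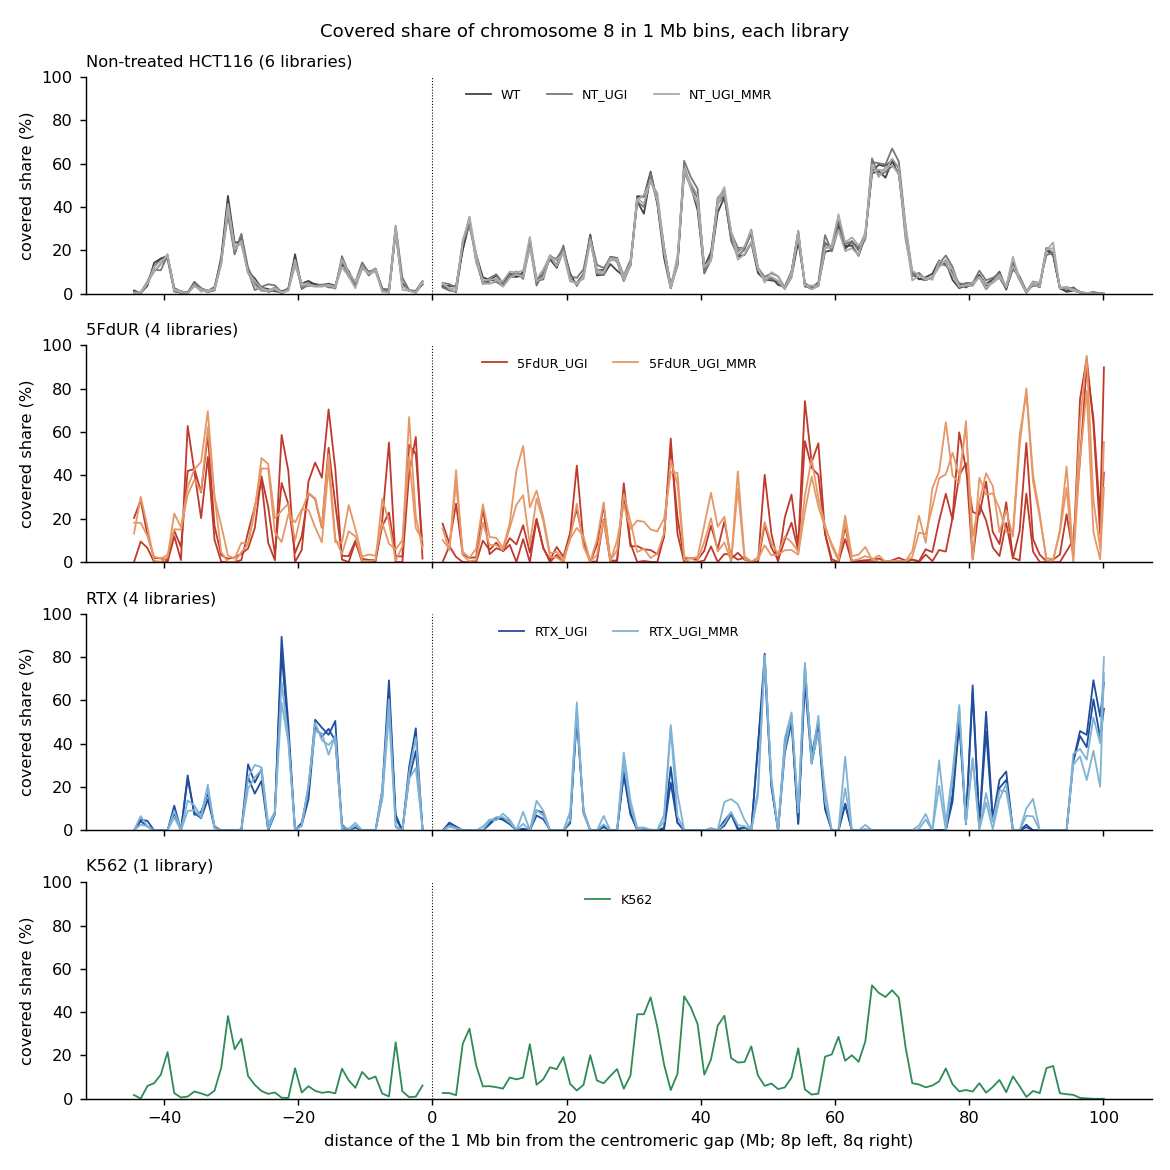
Covered share (%) of each 1 Mb bin of chromosome 8 against its distance in Mb from the centromeric gap, with 8p to the left and 8q to the right, 1 line for each library and a panel each for non-treated HCT116, 5FdUR, RTX and K562. The non-treated libraries and K562 have their highest bins within chr8:107000001-120000000, a stretch covered by at most 6.81% in any drug-treated library. The highest bin is chr8:142000001-143000000 in the 5FdUR libraries, chr8:22000001-23000000 in RTX_UGI and chr8:94000001-95000000 in RTX_UGI_MMR. Non-treated libraries cover at most 7.76% of any of these bins.

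Called bins lay together, in 18 runs that rose and 21 that fell. The longest run of falling bins, chr8:107000001-120000000, spans 13 bins with 31 protein-coding genes, among them CSMD3, SAMD12, TRPS1 and EXT1. It was covered by 31.4 to 33.9% in the 6 non-treated libraries. It was covered by 0.384, 1.54, 4.75 and 6.81% in the 5FdUR libraries and by 0.0331 to 0.975% in the RTX libraries. All drug-treated values lay far under the non-treated ones, and those of 5FdUR_UGI_MMR were the highest of them.

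The next run of falling bins was chr8:82000001-93000000, with 11 bins, including CNBD1, RALYL, MMP16 and CNGB3. Its share was 30.8 to 34.0% without drug, 1.66, 5.31, 7.39 and 12.5% after 5FdUR and 1.03 to 4.21% after RTX. A run of 5 bins at chr8:75000001-80000000 holds ZFHX4, HNF4G and IL7 (the cytokine interleukin 7). It went from 38.4 to 41.7% without drug to 2.52 to 17.4% after 5FdUR and 0.254 to 2.08% after RTX. In each of these runs, which were chosen as the longest of called bins, the groups did not overlap. Among treated libraries 5FdUR_UGI_MMR_2 kept the largest share.

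The longest runs of rising bins spanned 7 bins each. The run at the end of 8q, chr8:139000001-145138636, has a GC content of 51.4% and 107 genes, among them TRAPPC9, PTK2 (focal adhesion kinase), TSNARE1 and ARHGAP39. It was covered by 0.528 to 1.23% in the non-treated libraries, by 29.4 to 45.1% in the 5FdUR libraries and by 24.8 to 41.1% in the RTX libraries. Its mean rose from 0.874 ± 0.233% (SD, n = 6) to 36.4 ± 6.81% (SD, n = 8). The run chr8:17000001-24000000 on 8p, with PSD3, CSGALNACT1, PEBP4 and MTUS1, went from 3.47 ± 0.632% (SD, n = 6) to 27.1 ± 3.16% (SD, n = 8), with every treated library between 22.01 and 32.4%.

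The remaining run of 7 rising bins, chr8:6000001-13000000, differed by drug. It holds MSRA, XKR6, MCPH1 (microcephalin), TNKS (tankyrase) and the defensin genes. Its share was 1.56 to 2.11% without drug. It was 28.4, 30.9, 37.7 and 32.1% after 5FdUR and 8.85, 10.4, 9.22 and 7.34% after RTX, so the 3 groups lay apart.

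Each drug against non-treated cells gave different counts. 5FdUR raised 66 bins and lowered 57 (limma; genome 53% and 32.1%), and RTX raised 46 and lowered 82 (limma; genome 44.1% and 46.7%). These comparisons share the non-treated libraries, so their calls are set side by side only. Of the 144 bins, 40 were called higher with both drugs and 56 lower with both. For 16 bins 5FdUR was called higher and RTX lower, and for 1 bin, chr8:93000001-94000000, 5FdUR was lower (0.868 against 11.2% without drug) and RTX higher (28.2%). With a common minimum log2 value of 0.33 the counts were 20 higher and 79 lower for 5FdUR, and 38 and 79 for RTX.

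Compared directly, with fluorouracil not told apart from uracil, 5FdUR covered more than RTX in 90 bins and less in 22 (limma, adjusted over 2903 bins). In the genome these were 56.9% and 26.3% of bins, together 83.3%, so more bins were higher after 5FdUR in both. That direction held with 300 Mb in each library (69 and 20 bins) but with a common minimum log2 value of 0.33 the split was 9 and 26, and the share of bins called went from 77.8 to 24.3%. Mean log2 values on chromosome 8 ran from 0.227 to 0.460 after 5FdUR and from 0.392 to 0.457 after RTX. That minimum lies above the mean in some 5FdUR libraries and in no RTX library. RTX left 71 bins of RTX_UGI and 61 of RTX_UGI_MMR below 1%, while 5FdUR left 32 of 5FdUR_UGI and 13 of 5FdUR_UGI_MMR there. Without drug the count was 12 or 13.

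The bins with the largest excess of 5FdUR over RTX all lay on distal 8q. At chr8:133000001-134000000, which holds TG (thyroglobulin), ST3GAL1, SLA and NDRG1, the 5FdUR libraries covered 31.6, 55.0, 80.2 and 78.3% and the RTX libraries 1.52, 2.66, 10.2 and 6.78% (difference 56.0 percentage points, limma, adjusted p = 1.39e-07). At chr8:142000001-143000000, with TSNARE1, ADGRB1, GML and JRK, 5FdUR covered 79.1 to 95.3% and RTX 23.3 to 44.1% (difference 55.1, limma, adjusted p = 6.96e-07). This was the most covered bin of the chromosome in all 4 5FdUR libraries. At chr8:124000001-125000000, with FER1L6 and MTSS1, 5FdUR covered 43.1 to 65.1% while RTX, at 2.97 to 4.29%, lay within the non-treated range of 2.90 to 5.01% (difference 50.4, limma, adjusted p = 1.28e-08).

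The reverse was found in 3 other bins. At chr8:94000001-95000000, with NDUFAF6, RAD54B and CDH17, RTX covered 75.8, 81.6, 80.7 and 80.1% and 5FdUR 40.3, 17.2, 18.4 and 7.77% (difference -58.6, limma, adjusted p = 9.41e-07). It was the most covered bin in both RTX_UGI_MMR libraries. At chr8:22000001-23000000, with PEBP4, PPP3CC, XPO7 and PIWIL2, RTX covered 59.0 to 89.4% and 5FdUR 9.21 to 58.7% (difference -42.7, limma, adjusted p = 1.12e-05), and this was the top bin in both RTX_UGI libraries. At chr8:125000001-126000000, with NSMCE2, WASHC5, SQLE and TRIB1, RTX_UGI covered 67.01 and 63.7%, RTX_UGI_MMR 33.2 and 33.4%, and the 5FdUR libraries 1.15 to 23.2% (difference -39.9, limma, adjusted p = 3.74e-05). It borders the bin with FER1L6 and MTSS1, so the order of the drugs turned over within 2 Mb.

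**Figure D3:**
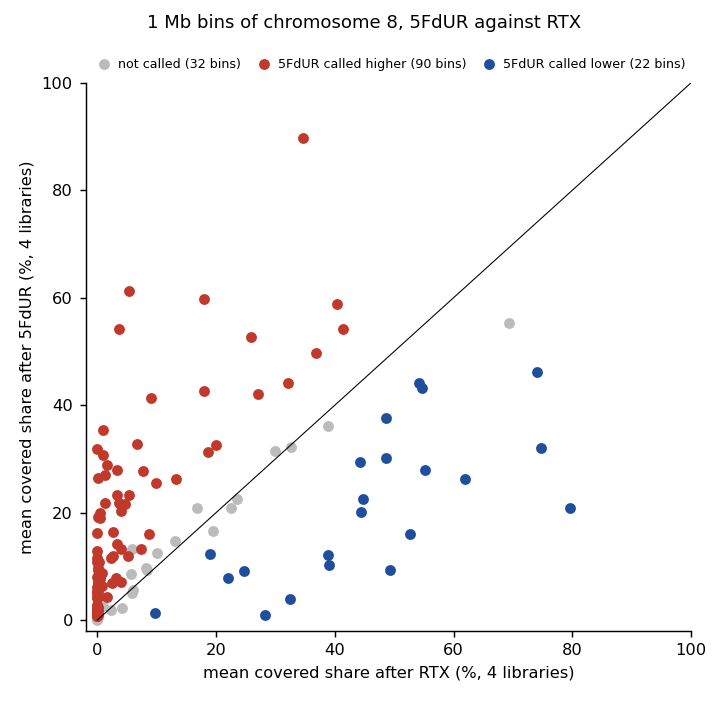
Mean covered share (%) after 5FdUR against that after RTX for each of the 144 bins of chromosome 8 (4 libraries each), coloured by the limma call between the drugs, with the line of equal share. The 90 bins called higher after 5FdUR include many near 0 after RTX, and the 22 called lower lie below the line.

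MMR status was compared within each drug with 2 libraries on a side, so the spread in limma is borrowed from all 7 conditions. After 5FdUR, 53 bins were higher and 14 lower in MMR proficient cells (limma; genome 30.1% and 20.1%, together 50.2%). The number rests on single libraries. Of the 144 bins 46.5% were called with all libraries, 30.6% without 5FdUR_UGI replicate 1, 70.1% without 5FdUR_UGI replicate 2 and 29.2% without 5FdUR_UGI_MMR replicate 2. With limma's array weights 14.6% were called, and with a common minimum log2 value of 0.33 it was 1.39% (0 higher and 2 lower). That minimum lies above the mean log2 value on chromosome 8 in 5FdUR_UGI_MMR_2 (0.227) and 5FdUR_UGI_2 (0.314), and near that in 5FdUR_UGI_MMR_1 (0.331). It removes much of what these libraries cover, so the drop in calls does not show that the MMR states are alike. The 5FdUR libraries also differ in what their files keep, with lowest log2 values of 0.25 and 0.14 in 5FdUR_UGI and 0.20 and 0.13 in 5FdUR_UGI_MMR. The part of this threshold in the result was not tested further.

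The bins higher in MMR proficient cells after 5FdUR had a median GC content of 39.3% and the lower ones 43.8%. At chr8:132000001-133000000, with KCNQ3, TG and EFR3A, 5FdUR_UGI covered 0.740 and 14.3% and 5FdUR_UGI_MMR 53.7 and 58.5% (difference 48.6 percentage points, limma, adjusted p = 0.000109). The bin beside it, chr8:133000001-134000000, went from 31.6 and 55.0% to 80.2 and 78.3% (35.9, limma, adjusted p = 0.000731). At chr8:90000001-91000000, which holds NBN (part of the MRN complex of double-strand break repair), the values were 1.1 and 4.27% against 34.1 and 41.9% (35.3, limma, adjusted p = 0.000150).

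Lower in MMR proficient cells after 5FdUR was chr8:143000001-144000000, with ZC3H3, PLEC (the cytoskeletal linker plectin) and TOP1MT, at 66.4 and 63.7% against 28.6 and 13.9% (difference -43.8, limma, adjusted p = 0.000429). At chr8:100000001-101000000, with RGS22 and SPAG1, the values were 74.3 and 55.8% against 30.7 and 23.6% (-38.0, limma, adjusted p = 0.00102). At chr8:42000001-43000000, with HOOK3, SLC20A2, KAT6A and IKBKB, they were 57.8 and 49.9% against 21.2 and 15.7% (-35.4, limma, adjusted p = 0.000471). In each of these bins the libraries of the MMR states did not overlap. The bins were chosen for the size of that difference, and 2 libraries on a side part easily, so this adds no support. With a common minimum log2 value of 0.33 the bins with PLEC and with HOOK3 kept their calls, and the other 4 lost theirs with the direction unchanged.

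After RTX, MMR status moved 4 bins up and 2 down (limma; genome 4.17% and 2.14%, together 6.3%). That share of 4.17% was 11.1% without either 5FdUR_UGI replicate, 2.78% and 1.39% without RTX_UGI replicate 1 or 2, and 1.39% and 7.64% without RTX_UGI_MMR replicate 1 or 2. It was 13.9% with array weights, 9.72% in 2 Mb bins and 0% with a common minimum log2 value of 0.33. The change from no drug to 5FdUR itself differed with MMR status in 29 bins toward more coverage in MMR proficient cells and in 6 toward less (limma interaction; genome 14.5% and 9.99%, together 24.5%). This count rests on single libraries and on the threshold. It was 16 and 0 or 8 and 2 without NT_UGI replicate 1 or 2, and 11 and 0 or 12 and 2 without NT_UGI_MMR replicate 1 or 2. It was 62 and 22 without 5FdUR_UGI replicate 2, and 46 and 9 or 15 and 2 without 5FdUR_UGI_MMR replicate 1 or 2. Array weights gave 16 and 2, and a common minimum log2 value of 0.33 gave 0 and 0. For RTX this was so in 1 bin toward more and 0 toward less (limma; genome 0.138% and 0.172%). No bin was called without any single WT, NT_UGI, NT_UGI_MMR, 5FdUR_UGI_MMR or RTX_UGI replicate or without RTX_UGI_MMR replicate 1, nor with the common minimum or with regions of at least 5 kb. Without transformation, and with 300 Mb in each library, it was 0 bins toward more and 1 toward less. It was 3 and 2 bins without either 5FdUR_UGI replicate, 2 and 0 without RTX_UGI_MMR replicate 2, and 9 and 5 with array weights.

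Without drug, 0 bins differed by MMR status and 0 between NT_UGI and WT (limma; genome 0% in both), and 0 bins of chromosome 8 had an unadjusted p under 0.05 in either comparison. In the genome 5 and 1 bins had such a p, far under the share of 0.05 that no difference would give. The spread in this fit is borrowed from all 7 conditions, the drug-treated ones among them. It therefore had little power to call a difference between non-treated libraries. The 6 non-treated libraries fitted alone, an alternative chosen after seeing the data, also gave 0 calls, with 3 and 4 of 143 bins at an unadjusted p under 0.05 (genome 118 and 101 of 2869). With 2 libraries on a side, 0 calls do not show that the conditions are the same.

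K562, with 1 library and so no test, followed the non-treated HCT116 profile. It covered 12.3% of chromosome 8, under all 6 non-treated HCT116 libraries, with 7.48% on 8p (inside their range) and 14.6% on 8q (below it). Its lowest region value was 0.33, at the top of the non-treated range, and its total length was 324 Mb. Of the 144 bins, 53 lay under all 6 non-treated HCT116 libraries (36.8%; genome 18.3%) and 11 above all of them (7.64%; genome 20.2%). The bins furthest below were among the most covered in HCT116. They were chr8:82000001-83000000 with 47.3% against 56.4 to 61.4%, and chr8:113000001-114000000, which partly overlaps CSMD3, with 50.1% against 58.9 to 67.03%. The bin furthest above was chr8:5000001-6000000 with 21.5% against 16.1 to 18.3%. The copy number of chromosome 8 in these lines was not measured here.

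The overlap of covered bases on chromosome 8 (shared bases over bases covered in either, the Jaccard index) averaged 0.438 over the 15 pairs of non-treated libraries. K562 with non-treated HCT116 gave 0.399 ± 0.0182 (SD over 6 pairs that share the K562 library). Drug-treated with non-treated libraries gave 0.0185 over 48 pairs, and 5FdUR with RTX 0.205 over 16 pairs, from 0.0655 to 0.423. The bases covered with and without drug were therefore nearly separate sets on this chromosome. Replicates shared 0.439 in 5FdUR_UGI, 0.312 in 5FdUR_UGI_MMR, 0.604 in RTX_UGI and 0.505 in RTX_UGI_MMR. The library 5FdUR_UGI_1 overlapped the RTX libraries by 0.362 to 0.423, more than the 5FdUR_UGI_MMR libraries (0.274 and 0.187). In the other 5FdUR libraries the order was the reverse, so the 5FdUR libraries are not uniform. Pairs share libraries, and files with more covered length bound the index they can reach, so no test is given.

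Among the 657 genes, 368 (56.0%) were covered more and 136 (20.7%) less in drug-treated libraries (limma, adjusted over 18924 genes; genome 69.7% and 11.2%). No overlap between the groups was seen for 92 genes in the higher direction (14%; genome 15.9%) and 74 in the lower (11.3%; genome 5.36%). The share of rising genes was 35.9% of 601 genes tested with 300 Mb in each library and 29.5% by exact permutation test of each gene. With 300 Mb in each library 216 rose and 167 fell, and with a common minimum log2 value of 0.33 it was 246 and 162 of 595. Between the drugs, 195 genes were covered more after 5FdUR and 203 less (limma; genome 21.8% and 45.4%), but 36 and 181 with that common minimum. In MMR proficient cells after 5FdUR 93 were covered more and 98 less (limma; genome 8.94% and 20.3%), but 6 and 35 with that minimum. A gene that lies wholly outside regions in non-treated cells can only rise, so these counts say less of short genes than of long ones.

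Very long genes fell. Of the 18 genes of 500 kb or more, 14 fell and 3 (PSD3, STK3 and TRAPPC9) rose, with a median difference of -13.4 percentage points against 16.8 for all 657 genes. Of those 657 genes 20.7% fell and 56.0% rose (genome 11.2% and 69.7%). CSMD3 went from 64.3 ± 2.38% (SD, n = 6) to 0.119 ± 0.209% (SD, n = 8), and its highest treated value was 0.601% (limma, adjusted p = 3.78e-07). CSMD1, its relative near the end of 8p, went from 10.7 to 15.003% without drug to at most 2.02% with drug. RALYL went from 41.0 to 50.6% to at most 2.71%. NRG1 (neuregulin 1) was at 8.77 to 13.3% without drug and at most 0.567% after RTX, but at 0.00822, 1.64, 8.45 and 18.1% after 5FdUR, so its drug-treated libraries overlapped the non-treated ones.

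The largest falls among genes of 20 kb or more were in C8orf88, CSMD3, TRIQK, ZC2HC1A, PI15, EMC2, ADAM18 and RALYL. TRIQK went from 47.8 to 63.5% without drug to 0 in 7 of 8 treated libraries and 0.224% in 5FdUR_UGI_MMR_1. EMC2, a subunit of the ER membrane protein complex, went from 38.4 to 64.3% to at most 1.097%. C8orf88 was the exception to a clean separation, since it kept 63.7% in RTX_UGI_MMR_1 against 62.1 to 94.0% without drug, and lost its call with array weights.

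The ADAM genes encode proteins of the metalloprotease family, most of them membrane-anchored, and sit in separate groups on 8p, with ADAM28, ADAMDEC1 and ADAM7 in one and ADAM9, ADAM32, ADAM18 and ADAM2 in the other. All were called lower, 7 of 7, with a median difference of -19.4 percentage points, against 20.7% of all 657 genes (genome 11.2%). Members of a group are neighbours and not separate observations. ADAM18, which is expressed in testis, went from 45.4 to 51.9% to at most 8.17%. ADAM9 was called on the transformed scale, with raw means of 17.0 and 16.0%. It was at 0 in all 4 5FdUR libraries and at 43.98, 52.5, 19.2 and 12.1% after RTX, and its call was lost without transformation, with array weights, with regions of at least 5 kb, and without WT replicate 2, NT_UGI replicate 2 or NT_UGI_MMR replicate 2 (limma, adjusted p = 0.0204 with all libraries). Its neighbour ADAM32, by contrast, stayed at or below 3.77% in every treated library, although its call was lost with array weights.

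The largest rises were in CHRNA2, JRK, RDH10, CDH17, PEBP4, ANK1, ANXA13 and an unnamed protein-coding model. CHRNA2 encodes a nicotinic acetylcholine receptor subunit. It was listed at 0 in all 6 non-treated libraries and covered by 20.9% in 5FdUR_UGI_MMR_2 and by 72.8 to 100% in the other 7 treated libraries (limma, adjusted p = 3.14e-06). ANK1, the ankyrin of the red cell membrane skeleton, was likewise at 0 without drug and at 49.6 to 98.6% with it. CDH17, the cadherin of liver and intestine, went from 2.55 to 6.10% to 33.6 to 81.1% after 5FdUR and 95.3 to 100% after RTX (5FdUR against RTX, limma, adjusted p = 0.000195). In all 8 genes, which were chosen for the size of their rise, no treated library overlapped a non-treated one. ANXA13, an annexin of the gut epithelium, had the reverse order of drugs, 82.5 to 100% after 5FdUR and 29.1 to 77.4% after RTX (limma, adjusted p = 0.00107).

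The LY6 family, small GPI-anchored or secreted proteins in a cluster near the end of 8q, rose in 13 of 13 members with a median difference of 70.5 percentage points. Among all 657 genes 56.0% rose, and in the genome 69.7%. The median member was at 0 without drug, from where a gene can only rise. The members lie near each other in the rising run at the end of 8q, so they are not separate observations. LYNX1, which acts on nicotinic receptors, was at 0 without drug and at 71.3 to 100% in every treated library. LY6E was covered by 100, 100, 100 and 96.6% after 5FdUR and was listed at 0 in all 4 RTX libraries and in all non-treated ones (5FdUR against RTX, limma, adjusted p = 1.64e-07). Of the 13 members 6 were higher after 5FdUR than RTX and 1 was lower. Among all 657 genes these numbered 195 and 203, and in the genome 21.8% and 45.4%.

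The gene-dense end of 8q, beyond the LY6 cluster, had the opposite order. Of 20 genes 18 rose with drug treatment and 0 fell, against 56.0% and 20.7% of all 657 genes (genome 69.7% and 11.2%). After 5FdUR 14 of the 20 were lower than after RTX, against 203 of all 657 genes and 45.4% in the genome. PARP10, a mono-ADP-ribosyltransferase, was at 0 without drug, at 68.2, 23.3, 0 and 0% after 5FdUR and at 98.9, 100, 48.5 and 64.8% after RTX (5FdUR against RTX, limma, adjusted p = 7.37e-05). PLEC was at 85.5 and 64.2% in 5FdUR_UGI but 9.26 and 0% in 5FdUR_UGI_MMR (limma, adjusted p = 0.000999). After 5FdUR 9 of the 20 genes were lower in MMR proficient cells, against 98 of all 657 genes and 20.3% in the genome. PLEC and PARP10 lie next to each other and share regions, so such neighbours are not separate observations. Among the 9 zinc finger genes of this end 6 rose, with ZNF707 at 62.3, 68.8, 5.77 and 0% after 5FdUR and 73.4 to 95.3% after RTX. ARHGAP39, ZNF251 and ZNF16 lost their calls with 300 Mb in each library and with a common minimum log2 value of 0.33.

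The defensins, small antimicrobial peptides of epithelia and neutrophils, lie in the rising run of 8p within segmental duplications, where fewer reads map uniquely. Of 25 annotated genes 12 were covered by no region in any HCT116 library and were not tested, 6 of the other 13 rose and 0 fell. Among all 657 genes 56.0% rose and 20.7% fell (genome 69.7% and 11.2%). DEFB1 was at 36.9 and 53.6% in the 5FdUR_UGI_MMR libraries and listed at 0 in all the others. Of the 5 carbonic anhydrase genes 4 fell and none rose, among them CA1, from 4.85 to 23.9% without drug to at most 5.84% with drug, with some overlap. The calls of CA1, CA3 and CA13 were lost with array weights, and those of CA3 and CA13 also on the untransformed scale. Of the 5 fatty acid binding protein genes 2 rose and 2 fell. FABP5 went from 0 to 0, 60.5, 81.7 and 100% after 5FdUR, with 11.8% in RTX_UGI_1 and 0 in the other RTX libraries. FABP4 was uneven without drug, at 0 in 3 libraries and 47.4 to 59.8% in the other 3, and its call was lost with array weights and with regions of at least 5 kb.

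The 17 genes of genome maintenance did not move as a block, with 7 higher, 5 lower and 5 not called. Among all 657 genes 56.0% were higher and 20.7% lower (genome 69.7% and 11.2%). Covered more after drug were NEIL2, a glycosylase for oxidised bases (0 to 56.9% on average), POLB, the polymerase of base excision repair (1.199 to 45.4%), CCNE2 (cyclin E2, 0 to 35.9%), the cohesin acetyltransferase ESCO2 (5.53 to 48.5%), and PINX1, UBE2V2 and the replicative helicase subunit MCM4. NEIL2 was the only one of the 17 in which every treated library lay above every non-treated one, and POLB (15.7% after 5FdUR and 75.1% after RTX), ESCO2 (14.9 and 82.1%) and CCNE2 (0 and 71.9%) owed their means mostly to RTX. PINX1, an inhibitor of telomerase, owed it to 5FdUR (34.3% against 1.33% after RTX). Its call was lost on the relative scale, with array weights, with 300 Mb in each library, and without WT replicate 2, NT_UGI replicate 2, NT_UGI_MMR replicate 2, 5FdUR_UGI_MMR replicate 1 or RTX_UGI replicate 2, and with a common minimum log2 value of 0.33 its sign turned (-0.0563 on the arcsine scale).

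Covered less after drug were RRM2B, a ribonucleotide reductase subunit (31.97 to 1.52%), the cohesin subunit RAD21 (25.3 to 1.30%), the helicase WRN (22.8 to 4.79%), the telomere protein TERF1 (17.3 to 6.18%) and NBN (22.6 to 15.4%). NBN, whose call was marginal (limma, adjusted p = 0.0486), was at 2.01% after 5FdUR and at 28.8% after RTX. RAD54B, a translocase of homologous recombination, was not called for the drugs together, where its sign turned on the relative scale and with 300 Mb in each library, yet it separated them fully. It was covered by 26.4 to 33.6% without drug, by 1.57, 0, 0 and 0% after 5FdUR and by 72.5, 87.3, 79.9 and 85.0% after RTX (5FdUR against RTX, limma, adjusted p = 2.40e-06). PRKDC, the catalytic subunit of DNA-PK, stayed at or below 10.7% in every library and was not called, with a sign that turned with 300 Mb in each library, nor were GINS4, DSCC1 and RECQL4.

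Of 23 cancer genes 11 were covered more after drug, 8 less and 4 were not called. Those covered more were MYC, FGFR1, KAT6A, PTK2, ANK1, TRIB1, NDRG1, COX6C, HEY1 and the TRAIL receptors TNFRSF10A and TNFRSF10B. MYC was listed at 0 without drug and had means of 53.7% after 5FdUR and 60.6% after RTX (drug-treated against non-treated, limma, adjusted p = 0.000476). NDRG1 was at 98.0% on average after 5FdUR and 12.2% after RTX, and PTK2 at 2.58 and 42.0%. Those covered less were CSMD3, TUSC3, RUNX1T1, FZD6, NRG1, DLC1, NCOA2 and WWP1. TUSC3 went from 20.0 to 26.7% without drug to at most 2.60% with drug, and DLC1 was at 9.21 to 15.1% without drug, 0 after RTX, and 22.3% in 5FdUR_UGI_MMR_2. The gene lists were drawn up with earlier results of these data known, so their counts are descriptions of the chromosome and are set against 56.0% higher and 20.7% lower among all 657 genes.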

How the data were processed

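The authors aligned reads to GRCh38.d1.vd1 with BWA 0.7.17-r1194, marked duplicates with Picard, removed blacklisted segments and reads without a unique place, and computed genome-scaled coverage in 100 bp bins smoothed over 5000 bp with deepTools 3.2.1. They deposited, for each library, regions above a log2 (enriched over input) threshold tuned so that replicates of a condition cover similar total lengths. The log2 value of a region has no heading and was read as its mean ratio. Log2 values were used only to select and describe regions, and the read numbers that the study tabulates were not used here.

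Regions of 15 single-library files were intersected with 1 Mb bins (at least 50% known bases) and with protein-coding genes of at least 1 kb from GENCODE 44 (GRCh38, the same build). The 7 merged files served as an alternative. Arms were split at the longest stretch that no file covers (chr8:43961101-46009500). Single values were compared by two-sided exact permutation tests over libraries, with Benjamini-Hochberg adjustment over 30 tests. Bins and genes were fitted with limma 3.58.1 in R 4.3.3 (arcsine square root of the covered share, 7 conditions, trend and robust options), over all chromosomes 1 to 22 and X, and called at an adjusted p of 0.05 or less. Labels of libraries gave the groups, and replicates are independent biological ones per the study's methods. On simulated shares for drug-treated against non-treated cells, with 200 of 2903 bins changed, limma recovered 188 bins shifted by 0.2 on the arcsine scale with 11 unchanged bins called, and 80 bins shifted by 0.1 with 5. These shares were drawn independently for each bin, with the same spread in every library and only upward shifts. In the data neighbouring bins are linked and 50.1% and 38.9% of bins were called higher and lower. The simulation therefore gives no error rate for these data.

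Members and gene lists were chosen with earlier results of these data known. Named were the 3 longest runs of called bins in each direction, the 3 bins of largest difference in each direction for 5FdUR against RTX and for MMR status after 5FdUR, the 8 genes of 20 kb or more with the largest change in each direction, the 4 longest genes of each run, bin and list, and genes of 500 kb or more. Beside these, the whole list of genome maintenance genes, single cancer genes and the bin at chr8:93000001-94000000 were named after their values were seen. Where a symbol is held by more than 1 gene (PINX1) the longest was used. Input and mock samples were not analysed here.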

Additional observations from a re-analysis of the deposited data

Results flagged for a closer look

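The change from no drug to 5FdUR differed with MMR status in 35 bins of chromosome 8 by the interaction term of limma (29 with a larger change toward coverage in MMR proficient cells and 6 with a smaller one, 24.3% of bins against 24.5% in the genome). It was so in 6.94% of bins without NT_UGI replicate 2, in 58.3% without 5FdUR_UGI replicate 2 and in 0% with a common minimum log2 value of 0.33. For RTX this was so in 1 bin, chr8:120000001-121000000, where RTX_UGI covered 0.120% and RTX_UGI_MMR 26.5% on average, and this call was lost in most alternatives, among them leaving out any single non-treated library. No library stood far from the others of its group in any of 40 groups of values examined for this.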

How the results depend on the processing

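The relative share and the arm difference kept their direction under every alternative tried, whereas the excess of falling over rising bins turned over without transformation (65 higher, 61 lower) and with regions of at least 5 kb (65 higher, 60 lower). Without single replicates the difference in covered share ranged from -0.540 to 0.417 percentage points, the relative share from -0.517 to -0.459, the arm difference from -13.4 to -12.4, the change of 8p from 8.47 to 9.41 and of 8q from -4.66 to -3.52, bins higher from 36.8 to 40.3%, bins lower from 43.8 to 48.6%, bins differing between 5FdUR and RTX from 66.7 to 84.7%, by MMR status after 5FdUR from 29.2 to 70.1% and after RTX from 1.39 to 11.1%, bins whose 5FdUR effect differed by MMR status from 6.94 to 58.3% and those for RTX from 0 to 3.47%, and genes higher from 52.2 to 59.7%. The difference in covered share was 2.53 percentage points with regions of at least 5 kb, -4.89 with 300 Mb in each library and -4.51 with a common minimum log2 value of 0.33. In the merged files the relative share differed by -0.4997 (exact permutation test, p = 0.0571, where 4 against 3 can reach 0.0286) and 8q by -4.10 (exact permutation test, p = 0.143). The change of 8p was 3.12 with the common minimum of 0.33, and that of 8q -0.315 with regions of at least 5 kb, and neither passed the test. These arm and interaction alternatives were added after seeing the data. A common minimum of 0.33 left 25% of bins higher (36 higher, 83 lower), 24.3% differing between 5FdUR and RTX, 1.39% by MMR status after 5FdUR, 0% after RTX and 0% for either interaction. It removes much of what 5FdUR_UGI_MMR_2 covers, where the mean log2 value on chromosome 8 was 0.227. These drops therefore do not show that the differences are absent. Array weights gave 14.6% for MMR status after 5FdUR and 13.9% after RTX, and 12.5% and 9.72% for the interactions with 5FdUR and RTX. Bins of 2 Mb gave 9.72% for MMR status after RTX, and the RTX interaction (0.694%) was 0% there, 0% with regions of at least 5 kb and 0.348% in 500 kb bins. Genes higher were 35.9% with 300 Mb in each library, 14% by no overlap of the groups and 29.5% by exact permutation of each gene. Of 1336 alternatives to 64 named genes and bins, 1282 kept the call, 43 lost it, 7 gained it and 4 turned the sign on the scale of the fit (PINX1 -0.0563 with the common minimum, PRKDC -0.0726 and RAD54B -0.18 with 300 Mb, RAD54B -0.54 on the relative scale). The cause of these shifts was not tested.

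The replicate numbers did not pair the libraries across all conditions. The difference between replicates 1 and 2 correlated between 21 pairs of conditions from -0.619 to 0.570, over 0.1 in 4 of them. The highest values were 0.570 for 5FdUR_UGI with 5FdUR_UGI_MMR and 0.498 for RTX_UGI with RTX_UGI_MMR. Those are the pairs compared for MMR status within a drug. Between 5FdUR and RTX conditions the values ran from -0.619 to -0.464, so a block term common to all conditions cannot take up the pairing within each drug. With the replicate block 38.2% of bins were higher and 45.1% lower, 77.1% differed between 5FdUR and RTX, 43.1% by MMR status after 5FdUR and 4.17% after RTX, 55.4% of genes were higher, and the arm difference kept p = 0.000816 (exact permutation within replicate numbers), and none of these counts moved by over 1.5 times. The call of the RTX interaction was lost (0%).

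The effect of depth was not tested, and with 2 libraries for a condition the comparisons of MMR status rest on a borrowed spread.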
